A study of Mus musculus with 3 samples.

Results

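The aquaporins and airway ion channels described here are 9 genes, chosen by name: the water channels Aqp1, Aqp3, Aqp4 and Aqp5, the epithelial sodium channel subunits Scnn1a, Scnn1b and Scnn1g, and the chloride channels Cftr and Ano1. All 9 had a value among the 22180 genes that could be named on the arrays, each through 1 probe set. RNA was measured on 3 mouse whole-transcript arrays, with 1 array per group. The groups were cells of FULA 1, a mouse lung adenocarcinoma line, grown in DMEM with 10% serum at 37 °C and 5% CO2, lung of FVB mice after a saline injection, and lung of FVB mice after an intraperitoneal injection of urethane. FVB is an inbred strain prone to lung tumours, and urethane (ethyl carbamate) is a carcinogen used to induce lung tumours in mice. Per the series title, lung was collected 1 week after urethane. The sources used here do not give the time of the saline lung, the number of mice per array, or the age and sex of the animals. Comparing the arrays asks how the tumour line differs from each lung and how the lung differs after the carcinogen. Without replicates no difference could be tested, and each value compares these arrays, not the conditions.

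Lung epithelium keeps a thin layer of liquid on its surface by moving salt, with water following by osmosis. Sodium is absorbed through the epithelial sodium channel (ENaC), a channel of alpha, beta and gamma subunits encoded by Scnn1a, Scnn1b and Scnn1g, and is pumped out at the basal side by the sodium-potassium pump. Chloride is secreted through CFTR, the channel mutated in cystic fibrosis, and through ANO1 (TMEM16A), a channel opened by calcium. Aquaporins are membrane pores for water: AQP5 lies in alveolar type I cells and gland acini, AQP1 in capillary endothelium and red cells, AQP3, which also passes glycerol, in basal cells of the airway, and AQP4 in the basal membrane of some airway cells.

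The deposited columns did not share a scale, with medians of 4.96 in FULA 1, 0.08 in saline lung and 1.22 in urethane lung (log2). Values below are therefore normalized log2 values, after the 3 arrays were given the same distribution, and percentile ranks among the 41345 probe sets of an array, which no such step changes. The background mark is the 95th percentile of 1105 olfactory receptor genes: 1.96 in FULA 1, 2.46 in saline lung and 2.44 in urethane lung (normalized log2). A gene was counted as higher or lower where it differed by at least 2-fold and the higher of the 2 values reached the floor of 2.37, the median of all gene values. Of all 22180 genes, 12913 passed the mark for FULA 1. For the lungs the number was 10985 (saline) and 10838 (urethane). Counts of markers above the mark, here and below, are to be read beside these numbers, and none was tested. On FULA 1 all 8 pan-epithelial markers lay above the mark, as did 5 of 7 club cell markers, though not Scgb1a1. The club cell markers had a median percentile rank of 59.9, against 98.8 on saline lung. Of the 10 alveolar type II markers, 7 lay above the mark on FULA 1. Their median percentile rank was 53.4, against 98.2 on saline lung. In both lungs all 10 alveolar type II and all 10 alveolar type I markers lay above the mark.

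FULA 1 was far lower than saline lung in the 3 ENaC subunits and higher in Aqp5 and Ano1. Of the 9 genes, 7 reached the floor in this comparison. Higher values were counted for 2 of them, where 22.6% of all 13590 genes past the floor were higher, and lower values for 3, where 22.0% were lower. Against urethane lung 7 reached the floor, with 3 higher (background 22.1%) and 3 lower (background 19.5%), Aqp3 being the added gene. Both comparisons use the same FULA 1 array. The median difference over the 9 genes was -0.47 against saline lung (log2, FULA 1 minus lung), beside -0.11 over all genes, and -0.67 against urethane lung, beside -0.08. Both medians are the values of Aqp4, which lay below the background mark on every array, so they give no size for the set. The counted genes lay on both sides of 0.

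**Figure D1:**
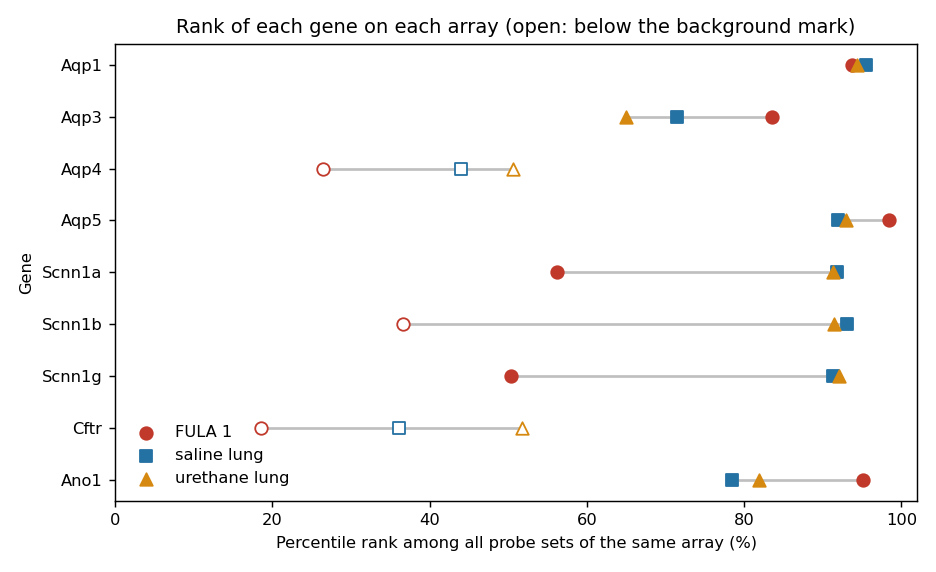
Percentile rank of each gene among all probe sets of its array (x axis, %), for FULA 1 (circles), saline lung (squares) and urethane lung (triangles), 1 array each; open symbols lie below the background mark. The lungs sit close together between 91.3 and 93.1 for the ENaC subunits, where FULA 1 lies between 36.6 and 56.2.

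Each sodium channel subunit ranked high in both lungs and was low in FULA 1. Scnn1a, the pore-forming alpha subunit, had a normalized value of 2.31 in FULA 1, 5.26 in saline lung and 5.15 in urethane lung. Scnn1b, the beta subunit, read 1.69, 5.52 and 5.18 on the same arrays. Scnn1g, the gamma subunit, read 2.10, 5.14 and 5.30. FULA 1 was thus the low array for every subunit, and the lungs were near each other. In ranks, Scnn1a went from 91.8 on saline lung to 56.2 on FULA 1, Scnn1b from 93.1 to 36.6 and Scnn1g from 91.3 to 50.3. The difference from saline lung was -2.95 for Scnn1a (7.75-fold), -3.83 for Scnn1b and -3.05 for Scnn1g (8.26-fold). Against urethane lung the differences were -2.84 for Scnn1a, -3.49 for Scnn1b and -3.20 for Scnn1g.

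On FULA 1, Scnn1b lay below the background mark, so its size is a bound: at least 3.56 lower than in saline lung and 3.22 lower than in urethane lung (log2). Scnn1a and Scnn1g lay above that mark by only 0.35 and 0.14. The FULA 1 value of Scnn1g was shared by 36 probe sets, while those of Scnn1a and Scnn1b were not shared. Scnn1a had a value shared by 58 probe sets on saline lung and by 85 on urethane lung. Of all genes past the floor, 2.04% had a lower difference from saline lung than Scnn1a, 1.03% than Scnn1b and 1.86% than Scnn1g. Under the 3 other scalings tried that bring the arrays together, the 3 subunits stayed lower by at least 2-fold in FULA 1. Over these and the main scaling, the difference from saline lung ran from -3.96 to -2.28 for Scnn1a, from -5.16 to -3.67 for Scnn1b and from -4.10 to -2.52 for Scnn1g. In the values as deposited, where the median of all genes was 4.80 higher on FULA 1, the signs turned to 2.60, 1.22 and 2.37.

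Scnn1b and Scnn1g lie next to each other in the RefSeq gene table, with no protein-coding gene between them. The flanking genes did not share their pattern. Usp31, on the far side of Scnn1g, differed by 0.39 (log2, FULA 1 minus saline lung), and Cog7, on the far side of Scnn1b, by 0.84. Neither was counted in any comparison. Scnn1a has Ltbr and Tnfrsf1a, receptors of the tumour necrosis factor family, as neighbours, at -0.90 and 0.88 against saline lung. Against urethane lung Ltbr differed by -1.02 and was counted as lower, as Scnn1a was. Tnfrsf1a differed by -0.37 there and was not counted. The 250 bases before the RefSeq start of the neighbouring subunit genes are shown because both were low in FULA 1; capitals mark the GC box (GGGCGG, either strand).

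Scnn1b (GRCm38.p6, chr7:121864788-121865037, plus strand): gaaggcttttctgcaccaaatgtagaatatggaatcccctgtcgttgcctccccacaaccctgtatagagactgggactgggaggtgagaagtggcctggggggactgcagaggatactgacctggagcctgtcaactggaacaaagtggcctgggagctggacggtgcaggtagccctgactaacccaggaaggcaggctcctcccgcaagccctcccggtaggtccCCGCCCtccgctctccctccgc

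Scnn1g (GRCm38.p6, chr7:121734229-121734478, plus strand): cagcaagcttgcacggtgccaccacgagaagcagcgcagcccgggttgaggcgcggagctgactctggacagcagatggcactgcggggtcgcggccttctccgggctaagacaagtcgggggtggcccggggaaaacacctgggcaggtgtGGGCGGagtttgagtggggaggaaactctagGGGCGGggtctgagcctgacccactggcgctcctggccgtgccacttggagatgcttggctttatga

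The Scnn1b window holds 1 GC box and has a GC content of 60.8%, and that of Scnn1g holds 2 and has 65.2%. The arrays did not measure the activity of these windows. Neither contains a TATA box (TATAAA), an AP-1 site (TGANTCA), the core of the cyclic AMP response element (TGACG) or the core of the glucocorticoid receptor site (AGAACA). Of 32851 such windows, the GC box was in 32.7%, TATAAA in 12.4%, TGANTCA in 6.75%, TGACG in 17.8% and AGAACA in 16.1%, counting both strands. The median GC content of these windows was 52.4%. No window for Scnn1a was used here.

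Of the 4 aquaporins among the 9 genes, Aqp5 differed most, and it was higher in the tumour line. Its normalized value was 7.77 in FULA 1, 5.28 in saline lung and 5.49 in urethane lung. FULA 1 was the high array, with a percentile rank of 98.5 against 92.0 and 92.9. The difference was 2.49 from saline lung (5.62-fold) and 2.28 from urethane lung (4.86-fold), above those of 96.8% and 96.2% of genes past the floor. Across scalings it ran from 2.02 to 3.59 against saline lung and from 1.68 to 3.48 against urethane lung. The urethane lung value was shared by 48 probe sets.

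Other genes of the alveolar type I cell, where AQP5 is known from the lung, went the other way in FULA 1. Of the 10 markers, 9 were lower than in saline lung, beside 22.0% of all genes past the floor. Among the 9 were Ager at -5.21, Hopx at -3.54 (at least 3.53 lower) and Pdpn at -2.72 (at least 2.63 lower). The tenth, Rtkn2, differed by -0.99. Above the mark were 7 of 10 on FULA 1, with Hopx, Pdpn and Spock2 below it. The summed normalized value of the list was 29.2 in FULA 1, 64.3 in saline lung and 63.2 in urethane lung. Aqp5 therefore differed in sign from every marker of that list, also under the 3 other scalings that bring the arrays together, but not in the values as deposited. In bulk samples, fewer cells of a type and less RNA per cell cannot be told apart, and FULA 1 is a culture of 1 cell line set against whole tissue. The part of cell makeup in the differences of the 9 genes was not tested.

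Aqp5 is flanked by other aquaporin genes, Aqp2 and Aqp6. Aqp2, the vasopressin-regulated channel of the kidney collecting duct, was lower in FULA 1 than in saline lung by 1.10 on the log2 scale, with percentile ranks of 59.6 in FULA 1, 78.1 in saline lung and 71.3 in urethane lung. Aqp6 lay below the mark on all 3 arrays. The high FULA 1 value in this gene group was thus that of Aqp5 alone. The window before Aqp5, shown because the gene stands apart from its neighbours, has a GC content of 78.4% and 2 GC boxes, in capitals.

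Aqp5 (GRCm38.p6, chr15:99590778-99591027, plus strand): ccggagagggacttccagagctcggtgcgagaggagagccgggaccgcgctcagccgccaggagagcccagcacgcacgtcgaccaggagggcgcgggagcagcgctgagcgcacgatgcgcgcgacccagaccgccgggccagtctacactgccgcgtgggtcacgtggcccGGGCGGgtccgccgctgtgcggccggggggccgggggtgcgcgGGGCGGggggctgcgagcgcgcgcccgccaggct

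Aqp1 differed little between the arrays. Its normalized value was 5.69 in FULA 1, 6.22 in saline lung and 5.86 in urethane lung, and its percentile ranks were 93.7, 95.5 and 94.4. The difference of FULA 1 was -0.54 from saline lung and -0.18 from urethane lung. When each array was shifted to the same median, both signs turned, to 0.78 and 1.46, the latter past 2-fold. Endothelial genes, markers of the cells that hold most AQP1 in lung, were lower in FULA 1 than in saline lung in 10 of 10 cases. This stood beside 22.0% of all genes past the floor, and the median of the 10 was -4.23. Pecam1 stood at -4.36 and Cdh5 at -5.45. On FULA 1, 6 of the 10 lay above the mark, with Cldn5, Tek, Vwf and Emcn below it, and the summed normalized value was 21.6, against 62.8 in saline lung and 61.2 in urethane lung. The 3 measured red cell markers (Slc4a1, Epb42 and Rhag) lay below the mark on every array. The part of these cells in the Aqp1 values was not tested.

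Aqp3 was higher in FULA 1 by an amount close to the threshold. The normalized value was 4.06 in FULA 1, 3.09 in saline lung and 2.73 in urethane lung, with percentile ranks of 83.6, 71.5 and 65.0. FULA 1 was the high array in both measures. The difference was 0.96 from saline lung, short of 2-fold, and 1.33 from urethane lung (2.51-fold). When each array was shifted to the same median, or given the FULA 1 distribution, the first became 2.39 and 1.30 and was counted, and after a lowess curve was subtracted the second became 0.98 and was not. Aqp3 lay above the mark by 0.63 on saline lung, where 250 probe sets shared its value, and by 0.28 on urethane lung. Nol6, a protein-coding gene next to Aqp3, was higher in FULA 1 than in saline lung by 0.63, which was not counted. Against urethane lung Nol6 differed by 1.29 and was counted as higher, as Aqp3 was. Basal cell markers, which mark the airway cells that hold AQP3, were above the mark in 1 of 5 cases on each array.

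Aqp4 lay below the background mark on all 3 arrays and is given no size. Its normalized values were 1.44 in FULA 1, 1.91 in saline lung and 2.11 in urethane lung, and 371 probe sets shared its saline lung value.

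**Figure D2:**
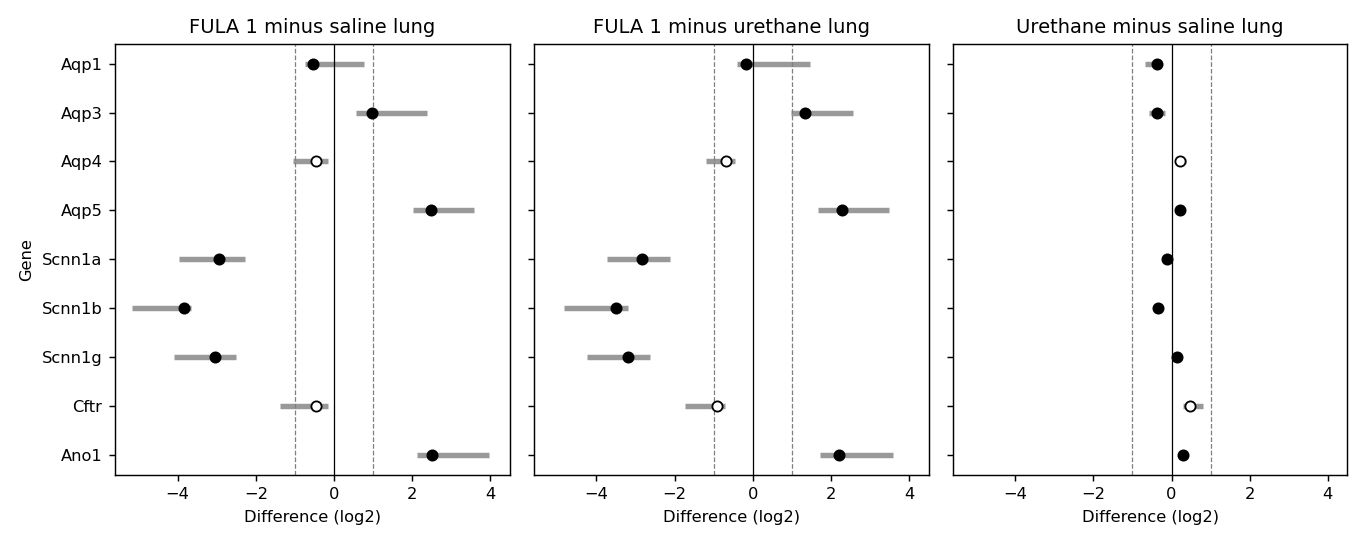
Difference of each gene (x axis, log2) in the 3 comparisons; points are the main values, grey bars the range over 4 scalings, dashed lines 2-fold, and open points genes below the background mark on both arrays. Aqp5 and Ano1 lie to the right of 2-fold and the ENaC subunits to the left in both FULA 1 panels over the whole range, while no gene passes 2-fold between the lungs.

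Ano1 was the chloride channel gene with a clear level, and it was highest in FULA 1. It read 6.10 in FULA 1, 3.59 in saline lung and 3.90 in urethane lung (normalized log2), at percentile ranks of 95.2, 78.5 and 81.9. The difference was 2.51 from saline lung (5.68-fold) and 2.20 from urethane lung (4.60-fold). These lay above 96.9% and 95.7% of genes past the floor and ran from 2.11 to 3.98 and from 1.72 to 3.59 across scalings. ANO1 is also known from smooth muscle. Of the 9 smooth muscle and pericyte markers, 7 were lower in FULA 1 than in saline lung, beside 22.0% of all genes past the floor. Acta2 stood at -3.63 and Myh11 at -2.03. On FULA 1, 5 of the 9 lay above the mark, with Tagln, Cnn1, Actg2 and Pdgfrb below it, and the summed normalized value was 19.1, against 34.9 in saline lung and 34.4 in urethane lung. The part of muscle in the Ano1 values was not tested.

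Neighbours of Ano1 are Fadd, an adaptor of death receptors, and Fgf3, a fibroblast growth factor. Fadd was higher in FULA 1 than in saline lung by 1.39, or at least 0.63 with the mark as its saline value, and by 0.47 than in urethane lung, which was not counted. Fgf3 lay below the mark on all 3 arrays. The window before Ano1 is shown as that of the other gene high in FULA 1; it holds 4 GC boxes, in capitals, and has a GC content of 72.0%.

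Ano1 (GRCm38.p6, chr7:144738574-144738823, minus strand): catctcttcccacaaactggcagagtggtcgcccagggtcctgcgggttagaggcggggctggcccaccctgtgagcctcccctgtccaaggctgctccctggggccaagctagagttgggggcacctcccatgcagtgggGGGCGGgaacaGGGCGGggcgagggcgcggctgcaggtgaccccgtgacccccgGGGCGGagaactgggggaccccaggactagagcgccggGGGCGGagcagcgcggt

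All 7 genes with a window used here had at least 1 GC box, beside 32.7% of all windows. Among the 7 were Aqp1, whose level hardly differed, and Cftr, which lay below the mark. The number of GC boxes was 1 before Scnn1b, 2 before Scnn1g and Aqp5, 4 before Ano1 and 6 before Cftr. Whether these letters have a part in the differences was not tested.

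Cftr lay below the background mark on all 3 arrays, so no size is given. It read 1.22 in FULA 1, 1.68 in saline lung and 2.15 in urethane lung (normalized log2), with percentile ranks of 18.5, 36.2 and 51.8. Saline lung gave 267 probe sets the same value. Its neighbours Asz1 and Cttnbp2 were below the mark on every array as well. Markers of ionocytes, the rare airway cells rich in CFTR, were above the mark in 2 of 6 cases on each array. These were Foxi1, the regulator of ionocyte fate, and Atp6v1c2, a proton pump subunit. Both were lower in FULA 1 than in each lung. The median over the 6 markers was -1.11 (log2) against saline lung and -1.01 against urethane lung. Only 2 of the 6 reached the floor in either comparison, so these medians give no size for the list.

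**Figure D3:**
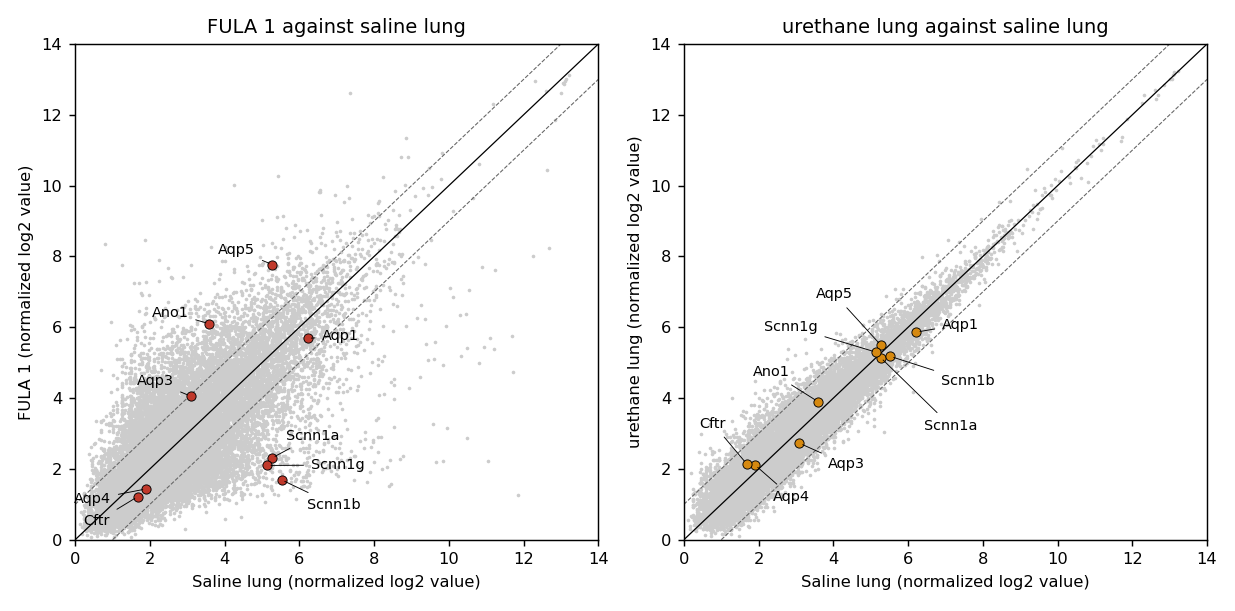
Normalized log2 value of every gene (grey points) on FULA 1 (left) and urethane lung (right) against saline lung, with the 9 genes named; the solid line is equality and the dashed lines 2-fold. Aqp5 and Ano1 lie above and the ENaC subunits below the 2-fold lines on the left, and all 9 lie inside them on the right.

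Urethane lung differed from saline lung by less than 2-fold in all 9 genes. Of the 7 past the floor, 0 were higher, where 3.27% of 12519 genes past the floor were higher, and 0 were lower, where 1.31% were lower; at 1.5-fold both counts were also 0, where 11.0% of all genes were higher and 10.7% lower. With 1 array per group no test across genes could be made, so no count at an unadjusted p exists. The median over the 9 genes was 0.15 (log2, urethane minus saline), beside -0.06 over all genes. Aqp3 differed by -0.37, Aqp1 by -0.36, Scnn1b by -0.34 and Scnn1a by -0.12. Scnn1g differed by 0.15, Aqp5 by 0.21 and Ano1 by 0.31. The ENaC subunits thus differed in sign among themselves. These 7 signs held under the 3 other scalings that bring the arrays together. The greatest of the 7 shifts in percentile rank was that of Aqp3, at -6.48 points.

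The wider machinery of salt and water transport was read from 9 lists of 114 genes, of which 103 had a value. Of 81 past the floor in FULA 1 against saline lung, 23 were higher (28.4%) and 18 lower (22.2%), near the background of 22.6% and 22.0%. Against urethane lung 21 were higher (26.6%) and 16 lower (20.3%) of 79, near the background of 22.1% and 19.5%. The same backgrounds stand beside the counts of each list below, and no list was tested.

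Cotransporters and exchangers of ions such as chloride, sodium and bicarbonate had 4 members higher and 0 lower of 7 past the floor. The median was 1.03 over 8. The list mixes genes that carry ions into the cell and out of it. Slc12a2, the sodium-potassium-chloride cotransporter NKCC1 that feeds chloride secretion, was higher by 4.79 than in saline lung and by 4.18 than in urethane lung. Its percentile rank was 98.0 in FULA 1, 62.6 in saline lung and 73.3 in urethane lung. Slc9a2, a sodium-proton exchanger, was higher by 3.24 (at least 2.71), and Slc4a4, a sodium-bicarbonate cotransporter, by 2.67. The least differences among those past the floor were 0.62 for Slc12a4 and 0.64 for Slc4a2.

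Chloride and bicarbonate channels and exchangers other than Cftr and Ano1 had 4 higher and 2 lower of 12 past the floor. Clca3b, of a family of near-identical secreted chloride channel regulators, was higher by at least 5.88, and Clcn3, a chloride-proton exchanger of endosomes, by 2.39 (at least 1.77). Slc26a9, an airway chloride transporter, differed by -1.37 and Clca1 by -1.25. The Clca genes resemble each other, so their values are uncertain. Of the other anoctamins, 3 were higher and 0 lower of 5 past the floor: Ano10 by 2.01, Ano6, a calcium-activated lipid scramblase, by 1.03, and Ano9 by 1.01 (at least 0.37). Volume-regulated anion channel subunits had 0 higher and 0 lower of 4 past the floor, from Lrrc8b at -0.14 and Lrrc8e at 0.08 to Lrrc8a, the required subunit, at 0.55 and Lrrc8c at 0.98.

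Of the other 8 aquaporin genes, 5 reached the floor in FULA 1 against saline lung, with 0 higher and 2 lower. Mip, the lens water channel, was lower by at least 2.33, and Aqp2 is given above. Aqp7, the glycerol channel next to Aqp3, differed by -0.68, Aqp9 and Aqp12 lay below the mark on every array, and Aqp11 differed by 0.82 (at least 0.73). Against urethane lung Aqp11 differed by 1.42 and was counted as higher, although its bound, at least 0.75, was short of 2-fold. In that comparison 3 of the 12 aquaporins measured were counted as higher: Aqp3, Aqp5 and Aqp11. Of the 12 aquaporins measured, only Aqp5 was counted as higher in FULA 1 than in saline lung, although Aqp3 and Aqp11 joined it at 1.5-fold and where the arrays were shifted to the same median or given the FULA 1 distribution, and all 12 were counted with the values as deposited, where 99.5% of all genes past the floor were.

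Genes that set ENaC activity went both ways, with 5 higher and 4 lower than in saline lung of 19 past the floor, and 2 higher and 5 lower than in urethane lung. Bpifa1, which encodes SPLUNC1, a secreted inhibitor of ENaC, was lower by at least 4.11, and Tsc22d3, a glucocorticoid-induced gene, differed by -2.02. Prss8, the channel-activating protease prostasin, differed by -1.62. Tmprss2, a serine protease, was higher by 2.27 (at least 2.07) and Nedd4, a ubiquitin ligase, by 2.01. Its relative Nedd4l, which removes ENaC from the membrane, differed by -0.98, and Sgk1, the kinase that restrains NEDD4L, by -0.99, both short of 2-fold.

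Partners of CFTR had 3 higher and 1 lower of 13 past the floor. Adcy6, an adenylate cyclase, was higher by 2.28 and Ezr, the membrane-cytoskeleton linker ezrin, by 1.79, while Slc9a3r2, a scaffold, differed by -3.23 and Vipr1, a receptor of vasoactive intestinal peptide, by -0.94. Potassium channels had 3 higher and 5 lower of 10 past the floor. Kcnn4, a calcium-activated channel, was higher by 1.32 and Kcnk5 by 1.16 (at least 1.05), against Kcnj15 at -2.67 (at least 2.62 lower) and Kcnma1 at -2.33. In the sodium-potassium pump list, 1 was higher and 4 lower of 6 past the floor. The beta subunits Atp1b3 and Atp1b1 differed by 1.02 and 0.58, and Fxyd1 and Fxyd7, of the family of small pump regulators, by -3.03 and -2.25. The alpha subunits of the pump were not analysed here.

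**Figure D4:**
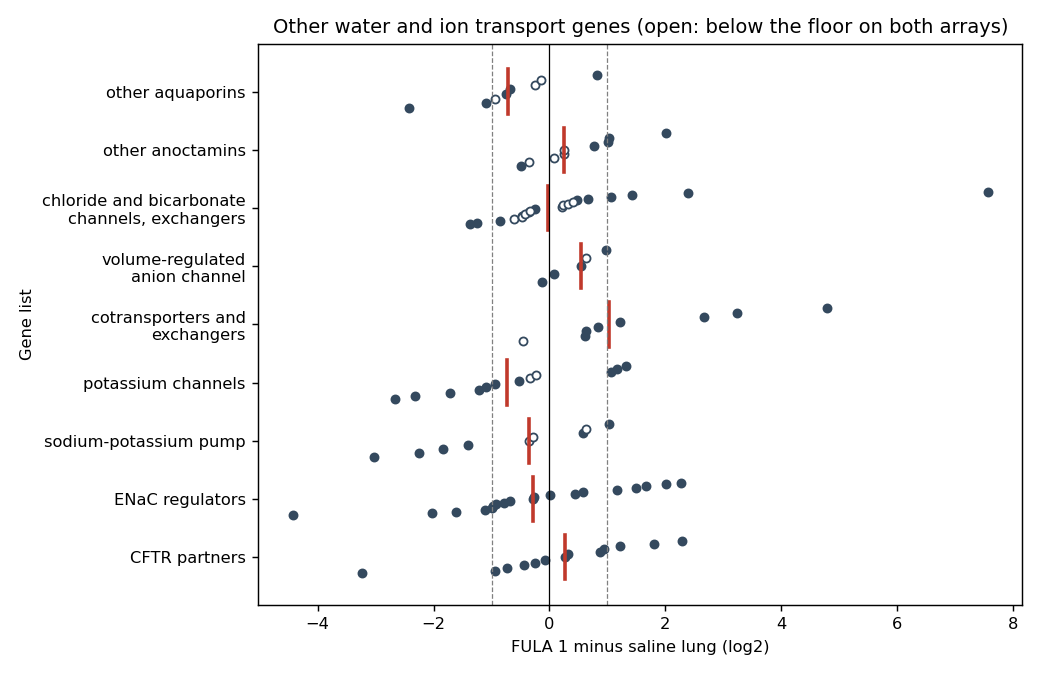
Difference between FULA 1 and saline lung (x axis, log2) for the measured genes of the 9 lists (y axis); open points lie below the floor on both arrays, red bars are list medians and dashed lines 2-fold. Cotransporters and exchangers have the highest median, 1.03, and potassium channels the lowest, -0.74.

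Between the lungs, 3 of the 72 listed genes past the floor were higher with urethane and 2 lower, beside 3.27% and 1.31% of all genes past the floor. Tmprss2 was higher by 1.17 (at least 0.98), Kcnk2, a potassium channel, by 1.08 and Slc4a4 by 1.05. Kcnma1, the large-conductance calcium-activated potassium channel, differed by -1.56 and Clcn4, a chloride-proton exchanger, by -1.01. Among the neighbours of the 9 genes, Tnfrsf1a, next to Scnn1a, was higher in the urethane lung by 1.25.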

How the data were processed

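The authors deposited log2 values per probe set for the 3 arrays, made with RMA, per the submitters' processing notes, and GeneSpring GX 12.5, per the design text. RMA corrects background, normalizes by quantiles and summarises probes. The sources used here do not give which arrays were normalized together. Of 41345 probe sets, 23521 carried 1 gene symbol in the platform annotation, 1814 several and 16010 none used here. Of the 23521 probe sets, 23328 had an Entrez identifier in the RefSeq table of GRCm38.p6, which gave the current name. Because the columns differed in scale, each probe set took the value of its rank in the average of the 3 sorted columns, ties at their mean rank. A gene was the mean of its probe sets. Monotone rescaling alters the size of differences, not ranks.

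No test was possible with 1 array per group, and precision is limited by the number of arrays. Bounds put the mark in place of a lower value below it. The calling steps were tested on simulated data. Promoter windows are from RefSeq (GRCm38.p6), and 7 of the 9 genes had one that was used here. Named were all 9 genes and most of the nearest protein-coding genes on each side. Mindy4, Ghrhr, Kctd1 and Chst9 were left out for room. For the 7 genes past the floor, the 3 genes with the nearest values were named. Of each list the 2 highest and 2 lowest past the floor were named, as were genes counted between the lungs. Ano9, Aqp11, Slc4a4, Prss8 and marker genes given as examples were named after their values were seen. The genes and lists were chosen with earlier results of these data known. Analyses used Python 3.11.15, pandas 2.3.3 and statsmodels 0.14.6.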

Additional observations from a re-analysis of the deposited data

How the results depend on the processing

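Apart from the values as deposited, 9 alternatives gave 243 differences of the 9 genes, of which 234 kept their direction and their side of the threshold. These were other scalings, 1.5-fold, 4-fold, the floor dropped or set at the 75th percentile, the probe set with the highest mean, and values held at the mark. The fold and floor settings do not alter a difference, so its direction could not turn there. Each of the 9 genes had 1 probe set, so the choice of probe set could not alter its difference either. The 9 differences that changed direction or side were those of Aqp1, Aqp3, Aqp4 and Cftr. With the deposited values, whose all-gene medians differed by 4.80 between FULA 1 and saline lung, 3.69 between FULA 1 and urethane lung and 1.09 between the lungs, 9 genes were higher and 0 lower in FULA 1 than in saline lung, 8 and 0 than in urethane lung, and 3 higher in urethane than in saline lung; of all genes past the floor, 99.5%, 99.0% and 63.9% were higher there. There the FULA 1 difference of Scnn1a became 2.60 and 1.63 against the saline and urethane lung, that of Scnn1b 1.22 and 0.54, and that of Scnn1g 2.37 and 1.13; the common offset of that array is part of these values. Holding values at the mark moved the all-gene median to -0.50 for FULA 1 against saline lung and -0.48 against urethane lung. When each array was shifted to the same median, all genes past the floor split into 7058 higher and 1785 lower in FULA 1 than in saline lung, against 3073 and 2994, and into 7154 and 1558 than in urethane lung, against 2930 and 2581. The lungs then split into 215 and 203, against 409 and 164, and after lowess into 233 and 35. After lowess FULA 1 had 2134 higher and 3009 lower than saline lung and 2157 and 2743 than urethane lung. No paired analysis was possible because each group held 1 array, and no array could be left out. Cftr and Aqp4 could not be sized on any array.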

Other observations

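Among 17398 named genes, those whose 3 normalized values lay nearest to a channel gene were found by Euclidean distance (log2) over the 3 arrays, as a description of these arrays. Nearest to Aqp5 were Aprt (0.24), Mfsd14a (0.29) and Ugdh (0.29), and 88 genes lay within a distance of 1. Ano1 had Emc3 (0.14), Cpd (0.16) and Uba6 (0.18) nearest. For Scnn1a these were Sirpa (0.16), Gstm2 (0.18) and Chil1 (0.20), for Scnn1b Chad (0.08), Gpc3 (0.14) and Cyria (0.19), and for Scnn1g Colec12 (0.11), Eln (0.12) and Chil1 (0.15). Chil1 was thus near both the alpha and the gamma subunit, whose own values were alike on the 3 arrays. Within a distance of 1 lay 183 genes for Scnn1a, 99 for Scnn1b, 143 for Scnn1g and 255 for Ano1. Nearest to Aqp1 were Apbb2 (0.13), Atp6v0d1 (0.15) and D8Ertd738e (0.19), with 437 genes within a distance of 1, and to Aqp3 Rhobtb3 (0.03), Snx10 (0.12) and Phtf1 (0.13), with 1542.

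Goblet cell genes, which share the airway surface with the channels, had 4 members past the floor in FULA 1 against saline lung. Of these 1 was higher and 2 lower, beside 22.6% and 22.0% of all genes past the floor. Gcnt3, a mucin glycosyltransferase, was higher by 2.54 (at least 1.92), while Tff2, a trefoil peptide, differed by -1.73 and Spdef, a regulator of goblet cell fate, by -1.33. The gel-forming mucin gene Muc5b differed by 0.75, and Muc5ac lay below the mark on every array. Of the 6 genes of the submucosal gland, 5 reached the floor in FULA 1 against saline lung. All 5 were lower, beside 22.0% of all genes past the floor. The median over the 6 was -2.03.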
